A study of Mus musculus with 9 samples.

Results

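The genes described here encode the proteins of the cytosolic ribosome. They were taken from the deposited tables of a study of mouse lung transplantation by symbol alone, as protein-coding rows whose name follows the Rpl, Rps or Rplp pattern, plus Rpsa. The rule found 84 of 23944 genes, all of them in each of the 3 tables. By role, 43 encode main copies of large-subunit proteins, 31 encode main copies of small-subunit proteins, 3 encode proteins of the ribosomal stalk and 7 are paralogs that encode a second version of a ribosomal protein. Fau, which encodes a ribosomal protein fused to a ubiquitin-like protein, carries a name outside the rule and is treated with the translation factors.

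The study measured RNA of whole left lungs from wild type adult mice in 9 libraries, 3 in each group. Naive lungs came from C57BL/6 mice that had no surgery. In the cold-ischemia group, lungs of C57BL/6 donors were stored cold for 24 h, transplanted into Balb/C recipients and reperfused for 2 h. In the shock group, C57BL/6 donors first underwent hypovolemic shock for 4 h and recovered for 20 h, and their lungs were then stored, transplanted into Balb/C recipients and reperfused for the same times. Both graft groups therefore share transplantation, storage and reperfusion, and a graft holds recipient blood cells beside donor lung. The titles number the lungs without naming animals, so p-values measure the spread between these samples.

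A cytosolic ribosome has a small subunit, which decodes mRNA, and a large subunit, which joins amino acids and carries a stalk that recruits translation factors. Its proteins are made in near equal numbers from short and very abundant mRNAs that nearly all begin with a run of pyrimidines, the terminal oligopyrimidine (TOP) tract. Through that tract the kinase mTOR and the RNA-binding protein Larp1 control the translation and stability of these mRNAs together. Every lung cell type expresses the family, and several members serve as reference genes in PCR.

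Runs of pyrimidines were sought in the RefSeq sequences at the annotated starts (build GRCm38.p6, from 10 bases before to 20 bases after the start, on the coding strand). A start was found for 63 of the 84 genes, in a search that did not cover every chromosome, for the family or for other genes. A run of at least 8 C or T was present in 24 of them (38.1%), against 13.0% of 26962 other genes and 8.70% of 69 genes for mitochondrial ribosomal proteins. The hexamer CTTTCC, searched on both strands and able to overlap such a run, was in 15.9% of the family's windows and in 3.0% of those of other genes. The family's median longest run was 7 bases, beside 5 for other genes. Some runs begin before the annotated start, that of Rpl7a 10 bases before it. The windows with the longest runs among the main copies are shown first, as the extremes of the family. Those of Rplp0, Rpl7l1 and Rpl22l1 follow because the results below turn on these genes. Capitals mark the longest run of C and T.
Rpl27a: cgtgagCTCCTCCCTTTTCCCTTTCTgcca
Rpl35: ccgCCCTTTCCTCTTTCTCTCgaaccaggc
Rpl15: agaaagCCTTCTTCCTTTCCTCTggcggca
Rpl7a: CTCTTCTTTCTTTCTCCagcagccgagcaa
Rpl13a: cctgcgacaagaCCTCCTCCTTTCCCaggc
Rplp0: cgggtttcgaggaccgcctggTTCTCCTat
Rpl22l1: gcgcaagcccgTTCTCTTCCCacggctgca
Rpl7l1: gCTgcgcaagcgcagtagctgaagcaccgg
The windows lie at chr7:109519185-109519214 on the plus strand for Rpl27a, chr2:39005112-39005141 on the minus strand for Rpl35, chr14:18270967-18270996 on the minus strand for Rpl15, chr2:26910797-26910826 on the plus strand for Rpl7a and chr7:45128726-45128755 on the minus strand for Rpl13a. Rplp0 has its window at chr5:115559457-115559486 on the plus strand, Rpl22l1 at chr3:28805498-28805527 on the plus strand and Rpl7l1 at chr17:46782637-46782666 on the minus strand. Rpl27a has a run of 20 bases and Rpl22l1 a run of 10, whereas the longest run in the window of Rpl7l1 is 2 bases. Annotated starts can differ from the starts used in lung, and a short run says only that these letters are not in this window.

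Total counts ran from 18913487 to 34986276 per library. Markers of lung were present in every library, with Sftpc, the surfactant protein of alveolar type II cells, between 7996 and 14458 CPM (counts scaled to library sizes adjusted by the TMM method). Summed CPM of 11 neutrophil markers was 60.5 to 86.9 in naive lungs and 1102 to 3098 in grafts, while the 8 B cell markers (9 gene rows, as Cr2 names a pair of them) summed to 82.5 to 114 CPM in naive lungs and 36.2 to 56.1 in grafts. Because the RNA is from whole tissue, fewer cells of a type and less RNA per cell cannot be told apart. Each naive library's label points to a sample record elsewhere, which no graft label does, so transplantation and library set cannot be told apart in the comparisons with naive lungs. The titles and the deposited tables disagree on 2 libraries: the library titled cold-ischemia replicate 2 stands among the shock columns of the tables, and the one titled shock replicate 3 among the cold-ischemia columns. Titles were followed here, and results that turn on the other grouping are given with both.

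In every library the family formed one highly expressed block with a few exceptions. Its 84 genes took 2.38%, 2.26% and 2.04% of the counts in naive replicates 1, 2 and 3. The shares were 2.05%, 1.43% and 2.08% in cold-ischemia replicates 1, 2 and 3, and 1.46%, 2.04% and 1.96% in shock replicates 1, 2 and 3. Cold-ischemia replicate 2 and shock replicate 1 were the lowest, and the other 4 grafts lay at or near the lower end of the naive range. On the deposited FPKM scale, which divides reads by gene length and library total, Rps27 of the small subunit had the highest level, with a mean over the 9 libraries of 824 FPKM. The stalk genes Rplp1 (777 FPKM) and Rplp0 (577 FPKM) followed. Rps27 ranged from 389 FPKM in cold-ischemia replicate 2 to 1108 FPKM in naive replicate 1, so the order of Rps27 and Rplp1, which ranged from 466 to 1013 FPKM, is within their spread over libraries. The main copies largely kept their levels relative to each other. Pearson correlations of log2(FPKM + 1) over the 76 tested main copies were 0.943 to 0.999 between libraries, and 0.986 to 0.992 among the naive libraries. This is a description over genes that share each library's depth, and such a correlation does not see a shift shared by all of them.

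**Figure D1:**
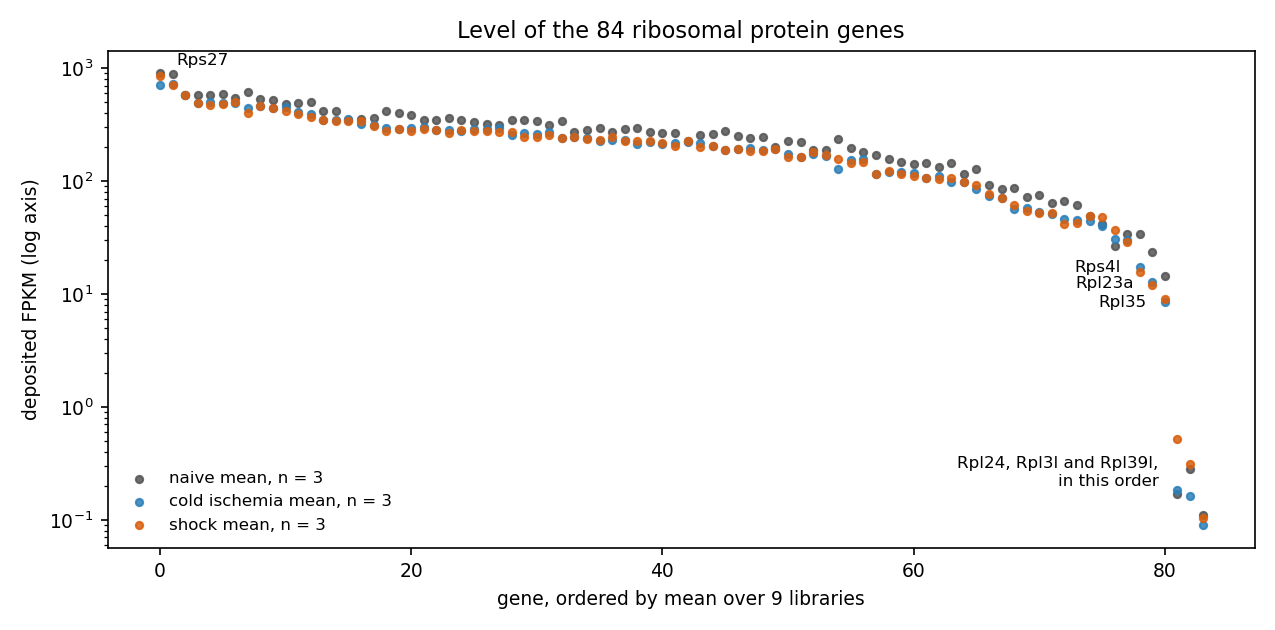
Deposited FPKM of the 84 ribosomal protein genes on a log axis, ordered by the mean over 9 libraries, with 1 point for the mean of the 3 libraries of each group. Most genes lie within a narrow band led by Rps27 at 824 FPKM, whereas Rpl24, Rpl3l and Rpl39l lie below 1 FPKM; FPKM divides by the library total, so most naive points lie above the graft points.

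The lowest members were of different kinds. Rpl39l, the paralog of Rpl39 known from male germ cells, had 0 to 7 reads per library, and Rpl3l, the paralog of Rpl3 known from heart and skeletal muscle, had 1 to 16 reads. Rpl24, a main copy of the large subunit that other tissues express as highly as its partners, was listed with only 0 to 14 reads per library. Rpl35 (10.7 FPKM on average) and Rpl23a (16.0 FPKM) were also far below the family's median of 228 FPKM. How reads that match several places were counted is not stated in the labels, and the levels of these 3 genes are therefore uncertain. The tables hold 145 pseudogene rows named after 49 of the 84 genes, and these rows took only 0.231% to 0.426% of the reads of family and pseudogenes together. Rpl39l and Rpl24 did not pass the filter on low counts, which leaves 82 of the 84 genes among the 15834 genes tested.

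Reading the Rpl3l counts against heart muscle markers gave a pattern by library and not by group. Rpl3l had 14, 7 and 11 reads in naive replicates 1, 2 and 3, 12, 1 and 3 reads in cold-ischemia replicates 1, 2 and 3, and 3, 11 and 16 reads in shock replicates 1, 2 and 3. The groups overlapped. Summed CPM of the 8 heart muscle markers was 411, 750 and 481 in the naive libraries, 1088, 163 and 110 in the cold-ischemia libraries and 132, 393 and 1213 in the shock libraries, so the 3 libraries with the fewest Rpl3l reads also had the lowest sums. Tissue of this kind can come with the vessels at the lung root, and its part in the Rpl3l counts was not tested.

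Between transplanted and naive lungs the family moved very little while a large share of the transcriptome changed. Of the 82 tested genes, 1 rose and 2 fell in grafts against naive lungs (edgeR's quasi-likelihood test, Benjamini-Hochberg adjusted p under 0.05 over all genes tested, mean of the graft groups against naive), whereas 41.8% of all genes tested were called. The median log2 fold change of the family was 0.017 and the quartiles were −0.11 and 0.10, beside a median of −0.052 and quartiles of −0.49 and 0.45 for all genes tested. By role, the median was −0.031 for the 42 large-subunit genes, 0.038 for the 31 small-subunit genes, 0.16 for the 3 stalk genes and 0.13 for the 6 tested paralogs. Cold-ischemia grafts against naive lungs gave 0 higher and 1 lower of 82, with a background of 30.6%, and shock grafts against naive lungs gave 1 higher and 1 lower, with a background of 39.9%. Both of these comparisons share the naive libraries. Without naive replicate 1 only 1 member was called in grafts. In cold-ischemia grafts 0 were called without naive replicate 2, cold-ischemia replicate 2 or cold-ischemia replicate 3 and 2 without shock replicate 2, and in shock grafts 1 was called without naive replicate 2 or shock replicate 1. When reads were scaled to library totals alone, the median of all genes shifted to −0.37 and the family's to −0.306, and the calls in grafts became 0 higher and 11 lower. With upper-quartile scaling the 2 medians were −0.25 and −0.186, so relative to all genes the family again stood slightly higher.

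**Figure D2:**
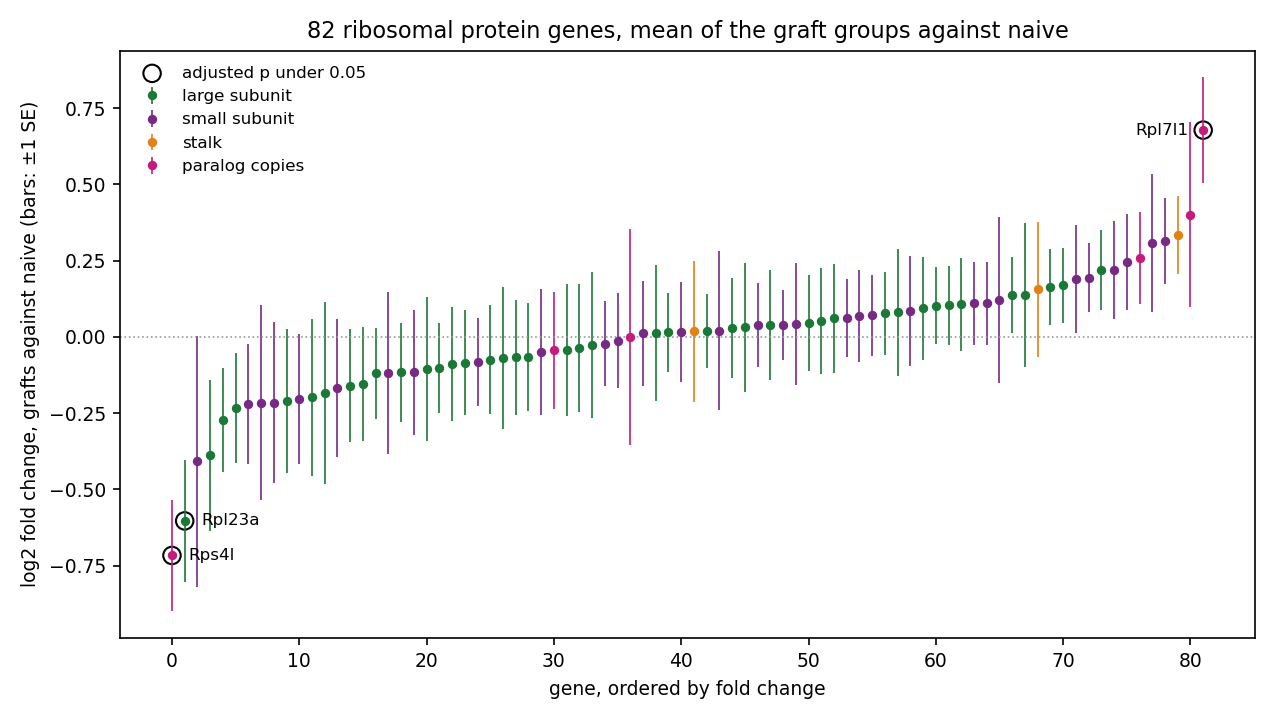
Log2 fold change of grafts (mean of the graft groups) against naive lungs for the 82 tested ribosomal protein genes, ordered by size, with bars of 1 standard error and colours for the role in the ribosome. The 3 circled genes passed the test: Rps4l at −0.72 and Rpl23a at −0.60 fell, and Rpl7l1 at 0.68 rose.

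Rpl7l1, a homolog of Rpl7 known from precursors of the large subunit, was the one member that rose. Its levels were 52.2, 60.8 and 65.8 CPM in naive replicates 1, 2 and 3, then 99.0, 80.5 and 78.7 CPM in cold-ischemia replicates 1, 2 and 3, and 85.1, 139 and 92.6 CPM in shock replicates 1, 2 and 3. All 6 grafts lay above all 3 naive libraries. The log2 fold change in grafts was 0.68 ± 0.17 (SE), a 1.60-fold rise, with an adjusted p of 0.00933 from edgeR's quasi-likelihood test. It was 0.83 ± 0.20 (adjusted p = 0.00689) in shock grafts and 0.53 ± 0.19 (adjusted p = 0.0616) in cold-ischemia grafts by the same edgeR test, and the difference between these, 0.30 ± 0.19, gave an adjusted p of 0.697. The adjusted p of the graft comparison was 0.0562 without naive replicate 1 and 0.0875 with scaling to library totals. In cold-ischemia grafts the adjusted p became 0.0135 without shock replicate 2, because the groups share 1 estimate of the spread. The gene lies at chr17:46773907-46782656 on the minus strand (mm10), and its main copy Rpl7, at 0.11 in grafts relative to the family median, gave no call. On the FPKM scale, Rpl7l1 was 6.77% to 9.34% of the Rpl7 level in naive lungs and 9.55% to 17.6% in grafts.

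Rps4l, an autosomal copy of the X-linked small-subunit gene Rps4x, fell. Its levels were 22.03, 29.58 and 30.8 CPM in the naive libraries, 22.7, 13.8 and 15.6 CPM in the cold-ischemia libraries and 13.9, 15.8 and 18.6 CPM in the shock libraries. Only cold-ischemia replicate 1 reached into the naive range. The log2 fold change in grafts was −0.72 ± 0.18 (SE; adjusted p = 0.00933, edgeR's quasi-likelihood test), and it was −0.66 in cold-ischemia grafts (adjusted p = 0.0401) and −0.77 in shock grafts (adjusted p = 0.0167). Without naive replicate 3 the adjusted p in grafts was 0.0502. The call in cold-ischemia grafts was lost without naive replicate 2, naive replicate 3, cold-ischemia replicate 2 or cold-ischemia replicate 3 (adjusted p of 0.111 to 0.137), and the call in shock grafts without naive replicate 2, naive replicate 3 or shock replicate 1 (adjusted p of 0.0590 to 0.0610). The annotated gene is a single stretch of 943 bases at chr6:148354656-148355598 on the plus strand (mm10), and reads shared with the near-identical Rps4x could have been split between the copies, so its counts are uncertain. Rps4x itself took no call.

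Rpl23a, a large-subunit protein at the exit of the peptide tunnel, was the one main copy that passed the test. It had 14.02, 13.34 and 8.19 CPM in the naive libraries, 8.25, 6.52 and 9.05 CPM in the cold-ischemia libraries and 7.24, 8.57 and 7.14 CPM in the shock libraries. Naive replicate 3 lay among the grafts, and the other naive libraries above them. The log2 fold change in grafts was −0.60 ± 0.20 (SE; adjusted p = 0.0318, edgeR's quasi-likelihood test). The call was lost when reads of its named pseudogene rows were added (adjusted p = 0.0658), without naive replicate 1 (adjusted p = 0.148) and without naive replicate 2 (adjusted p = 0.139). It was also lost without cold-ischemia replicate 1, cold-ischemia replicate 2 or shock replicate 1, with adjusted p of 0.0505, 0.0631 and 0.0568.

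Rplp0, the base of the stalk and a common PCR reference gene, lay just outside the threshold. It had 654, 713 and 649 CPM in the naive libraries, 877, 827 and 828 CPM in the cold-ischemia libraries and 761, 975 and 812 CPM in the shock libraries. All grafts lay above all naive libraries. Its log2 fold change of 0.33 ± 0.13 (SE) had an adjusted p of 0.0562 by edgeR's quasi-likelihood test and 0.0131 by the DESeq2 Wald test. Without shock replicate 1 the edgeR value was 0.0455, and with scaling to library totals the log2 fold change was 0.01. Rplp0 and Rpl7l1 were 2 of 82 tested members without overlap between grafts and naive lungs, against 40.9% of all genes tested. The other stalk genes, Rplp1 and Rplp2, had log2 fold changes of 0.02 ± 0.23 and 0.16 ± 0.22, and both overlapped between groups.

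**Figure D3:**
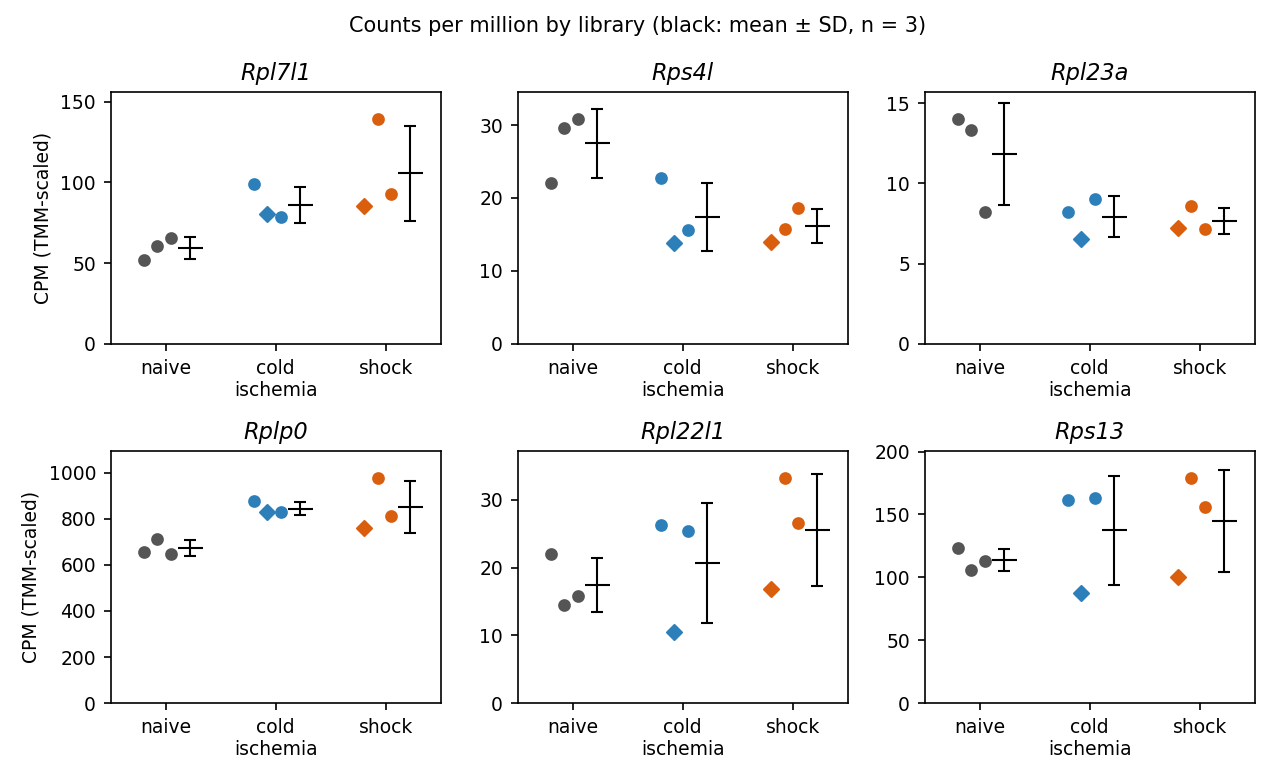
TMM-scaled CPM of 6 ribosomal protein genes in each library, with the mean and SD of the 3 libraries of a group in black; diamonds are cold-ischemia replicate 2 and shock replicate 1. Rpl7l1 and Rplp0 are higher in all 6 grafts than in the naive libraries, Rps4l and Rpl23a are lower in most, and Rpl22l1 and Rps13 separate the diamonds from the other grafts.

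The members often used as PCR references, or known for roles outside the ribosome, showed no call. Rpl13a, which also silences inflammatory mRNAs in myeloid cells, had a log2 fold change in grafts of −0.07 ± 0.18 (SE), and Rps6, the target of S6 kinase, one of 0.07 ± 0.13. Rpl5 and Rpl11, which bind Mdm2 when ribosome assembly fails, stood at 0.08 ± 0.14 and −0.07 ± 0.19. Rps19, the gene most often mutated in Diamond-Blackfan anemia, stood at 0.02 ± 0.26. Rpsa, also known as a laminin receptor, and Rps27a, which is made as a fusion with ubiquitin, stood at 0.19 ± 0.11 and 0.25 ± 0.16. Rpl13a had 499.5, 445 and 435 CPM in the naive libraries, 480, 341 and 515 CPM in the cold-ischemia libraries and 323, 499 and 478 CPM in the shock libraries, so its level in cold-ischemia replicate 2 and shock replicate 1 was below every naive library although the group means were close. Rps18 and Rpl32, also common references, followed the same order: Rps18 was at 142 and 140 CPM in these 2 libraries and at 198 to 254 CPM in the other 7, and Rpl32 was at 109.3 and 111 CPM beside 138 to 210 CPM. Rpl4 was steadier, with 560 to 616 CPM in naive lungs and 601 to 738 CPM in grafts (log2 fold change 0.17 ± 0.12). Rps3, which also takes part in DNA repair and NF-kB signalling, stood at 0.02 ± 0.16, Rpl23, a further partner of Mdm2, at 0.01 ± 0.22, and Rps14 at 0.19 ± 0.18.

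Rpl22l1, the paralog of Rpl22 that the Rpl22 protein is known to repress, had 21.9, 14.5 and 15.8 CPM in the naive libraries, 26.3, 10.5 and 25.4 CPM in the cold-ischemia libraries and 16.9, 33.2 and 26.6 CPM in the shock libraries. The groups overlapped, and the log2 fold change in grafts was 0.40 ± 0.30 (SE; adjusted p = 0.313, edgeR's quasi-likelihood test). Rpl22 itself had 130, 116 and 105 CPM in the naive libraries, 116, 71.9 and 116 CPM in the cold-ischemia libraries and 83.2, 84.1 and 111 CPM in the shock libraries, with a log2 fold change of −0.27 ± 0.17 (adjusted p = 0.223, same edgeR test). The other main copies with a paralog moved less than Rpl22 in grafts, and none was called. Rpl3 had 373 to 461 CPM in naive lungs and 374 to 462 CPM in grafts, with a log2 fold change of 0.02 ± 0.12 (SE). Rpl7, Rpl10, Rpl36a, Rpl39, Rps4x and Rps27 had log2 fold changes between −0.20 ± 0.26 for Rpl39 and 0.12 ± 0.27 for Rps27, all overlapping between groups. Rpl36al and Rps27l, the second a known target of p53, had log2 fold changes of 0.26 ± 0.15 and −0.04 ± 0.19 without a call.

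Shock added no change that the test could see under the titled grouping. Of the 82 members 0 were called between shock and cold-ischemia grafts by edgeR's quasi-likelihood test, 0 had an unadjusted p under 0.05, and DESeq2 also called 0. The background was 0% of all genes tested by adjusted p. At an unadjusted p under 0.05 in the same edgeR test it was 1152 of 15834 genes. The median log2 difference of the family was 0.012, beside 0.010 for all genes. The median standard error of a member was 0.21, which limits the precision of single differences with 3 libraries a group.

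The main feature of the family was not a group difference but 2 libraries in which it was low as a block. Relative to the mean of the naive libraries, the median log2 CPM of the 82 members was 0.07, 0.02 and −0.08 in naive replicates 1, 2 and 3. It was 0.23, −0.48 and 0.15 in cold-ischemia replicates 1, 2 and 3, and −0.32, 0.20 and 0.09 in shock replicates 1, 2 and 3. Cold-ischemia replicate 2 and shock replicate 1 were thus below every naive library, and the other 4 grafts above the naive mean. In cold-ischemia replicate 2, 77 of 82 members lay below the naive mean and in shock replicate 1, 70 of 82, while in the other 4 grafts 6 to 20 members did. The same 2 libraries were the lowest of the 6 grafts for 76 of 82 members and for 72 of the 76 main copies, beside 11.3% of all genes tested. They were also the lowest in the family's median with DESeq2 size factors, upper-quartile scaling and library totals.

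**Figure D4:**
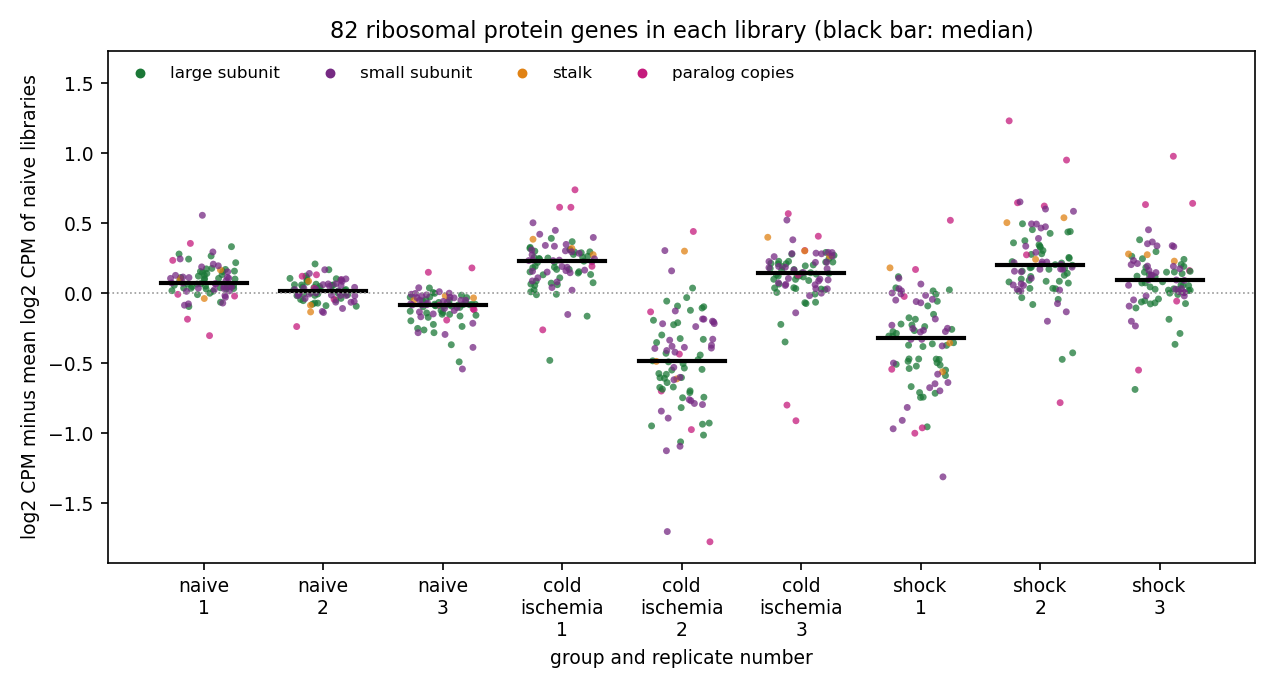
Log2 CPM of each of the 82 tested ribosomal protein genes minus its mean in the naive libraries, by library, with 1 point per gene coloured by role and a black bar at the median. The cloud sits low in cold-ischemia replicate 2 (median −0.48) and shock replicate 1 (median −0.32), and above 0 in the other 4 grafts.

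The drop differed between members. Among the deepest main copies were Rps29, Rps28 and Rpl38, and in cold-ischemia replicate 2 also Rps21 at −1.09 and Rpl35 at −1.06. Rps29 was at −1.70 in cold-ischemia replicate 2 and −1.31 in shock replicate 1 (log2 relative to the naive mean), Rps28 at −1.12 and −0.97, and Rpl38 at −1.01 and −0.95. Rps29 also ranged from 0.56 to −0.54 among the naive libraries. By contrast, Rpl4 stood at 0.04 and 0.02, Rpsa at 0.16 and 0.07, Rplp0 at 0.30 and 0.18 and Rpl7l1 at 0.44 and 0.52 in these 2 libraries. These examples were chosen after their values were seen. The median of the 47 members under 1000 bases was −0.58 and −0.37 in cold-ischemia replicate 2 and shock replicate 1, and that of the 35 longer members −0.35 and −0.27. Over the 76 main copies the Spearman correlation of the shift with log gene length was 0.37 in cold-ischemia replicate 2 and 0.25 in shock replicate 1, beside −0.23, −0.06 and 0.24 in naive replicates 1, 2 and 3 and −0.13 to 0.17 in the other grafts, as a description over genes of 1 library. The value in shock replicate 1 was thus close to that in naive replicate 3.

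Other gene sets moved in the same libraries. The 733 other protein-coding genes under 1000 bases had a median of −0.52 in cold-ischemia replicate 2 and −0.47 in shock replicate 1, and between −0.07 and 0.02 in the other grafts. The 13872 longer protein-coding genes had medians between −0.063 and −0.007 in all 6 grafts. The 76 genes for mitochondrial ribosomal proteins, which serve a separate ribosome in mitochondria, had medians of −0.55 and −0.54 in these 2 libraries and −0.32 to −0.10 in the other grafts. Lung marker sums were 27742 CPM in cold-ischemia replicate 2 and 31783 CPM in shock replicate 1, beside 34105 to 43773 CPM in the other grafts. The single lung markers did not move together. Scgb1a1 was at 10591 and 12934 CPM in these 2 libraries, beside 17175 to 23674 CPM in the other grafts, and Ager was also lowest there. Sftpb (5030 and 4851 CPM) and Pecam1 (786 and 889 CPM) were instead highest there, and Sftpc, Foxj1 and Cldn5 overlapped the other grafts. Neutrophil sums of 1280 and 2703 CPM fell within the range of the other grafts. The part of gene length, of RNA quality or of cell make-up in the low family values was not tested.

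**Figure D5:**
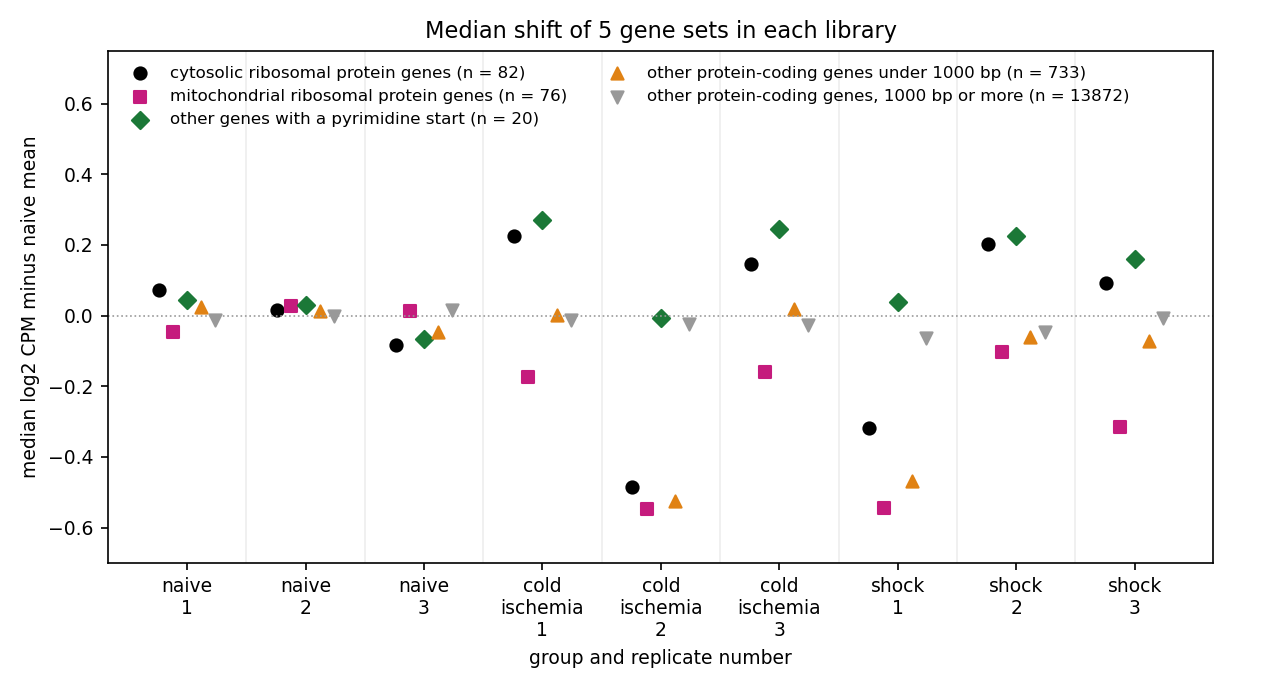
Median over each gene set of log2 CPM minus the mean of the naive libraries, 1 symbol per set and library. Short genes outside the family and mitochondrial ribosomal protein genes are near −0.5 in cold-ischemia replicate 2 and shock replicate 1. The family is at −0.48 and −0.32 there. The 20 other genes listed as having a pyrimidine start are at −0.01 and 0.04 there, below their 0.16 to 0.27 in the other grafts. Their median length is 1928.5 bases, beside 939 for the family.

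The family's median and its number of called members in grafts against naive lungs changed when the 2 low libraries were left out. Both were left out after seeing that the family was low in them. That choice itself raises the family's median, so the added rises give no separate evidence of a rise. In that fit 6 members rose and 1 fell in grafts against naive lungs by edgeR's quasi-likelihood test, with a background of 37.4%. The family's median log2 fold change was 0.161. The members that rose were Rps14 (0.34), Rplp2 (0.37), Rps27a (0.38), Rps13 (0.52), Rpl22l1 (0.67) and Rpl7l1 (0.76), and Rps4l (−0.61) fell. Rps13, a small-subunit protein, shows the pattern: it had 123, 106 and 113 CPM in the naive libraries, 161, 87.5 and 163 CPM in the cold-ischemia libraries and 100.1, 179 and 156 CPM in the shock libraries. The 2 low libraries lay below every naive library for this gene, and the other 4 grafts above.

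Because the tables place cold-ischemia replicate 2 among the shock grafts, both low libraries fall on the shock side in the authors' grouping. Under that grouping the median log2 difference of the family between shock and cold-ischemia grafts was −0.328. By adjusted p of edgeR's quasi-likelihood test 0 of 82 members were called, beside 0.783% of all genes tested. In the same test 19 members had an unadjusted p under 0.05. The share of all genes at that unadjusted threshold is not given, so the 19 cannot be set against the 0.783%. Without the 2 libraries the median under the same grouping was 0.037, and 1 member, Rpl7l1, was called higher in shock (0.63 ± 0.17, SE; adjusted p = 0.0429, same edgeR test), with a background of 13.7%. That fit leaves 1 shock library against 3 and assumes that the lone library varies like the other groups. In the authors' deposited table of shock against cold ischemia, 79 of 84 members had negative log2 fold changes with a median of −0.268, and 1 member was called lower, Rpl22 at −0.48 (the authors' adjusted p = 0.0358), against 3.1% of genes in that table. In the authors' deposited table of cold ischemia against naive lungs, 17 members were called higher and 1 lower against a background of 36.2%, with a median of 0.175. The authors' deposited table of shock against naive lungs called 2 members higher, Rpl7l1 (0.79) and Rplp0 (0.38), and 3 lower, Rps4l (−0.87), Rpl22 (−0.50) and Rps15 (−0.49), against a background of 37.3%, with a median of −0.120. The 3 tables share libraries in pairs.

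Setting each gene against the family in its own library removes the shared shift. Relative to the median of the main copies, 7 of 82 members had no overlap between grafts and naive lungs, beside 31.3% of all genes tested on the same scale. Among them, Rpl7l1, Rplp0, Rps25 and Rps27a were higher in all grafts than in all naive libraries, and Rps4l and Rpl22 were lower. The mean shift relative to the family was 0.68 for Rpl7l1, 0.34 for Rplp0, 0.24 for Rps27a, −0.28 for Rpl22 and −0.71 for Rps4l on the log2 scale. Rps25, of the small subunit, is named only because it met this criterion.

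Lists of other genes of the translation machinery are read against the 41.8% of all genes called in grafts against naive lungs and their median of −0.052, and no difference from that background or from the family was tested. By direction, 3497 of the 15834 genes tested rose and 3123 fell. Of 20 tested genes for translation factors and other proteins with a pyrimidine start, 4 rose and 2 fell in this comparison (edgeR's quasi-likelihood test), a smaller share than the background, with a median log2 fold change of 0.17. Pabpc1, the cytoplasmic poly(A)-binding protein, rose by 0.82 ± 0.12 (SE; adjusted p = 0.000451), from 398 CPM on average in naive lungs to 687 in cold-ischemia and 719 in shock grafts. Btf3 and Tpt1 rose by 0.49 and 0.48, and Eif4b, a cofactor of the helicase that unwinds mRNA starts, stood at −0.43 with a call. The medians of this set were −0.01 and 0.04 in cold-ischemia replicate 2 and shock replicate 1 and 0.16 to 0.27 in the other grafts. Fau stood at 0.07 ± 0.17 without a call.

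Of 21 genes listed with the mTOR pathway 9 rose and 2 fell in the same comparison, beside 41.8% of all genes called. The list's median log2 fold change was 0.32. Sesn2, a stress-induced inhibitor of mTOR complex signalling, rose by 1.34 ± 0.16 on the log2 scale (SE; adjusted p = 0.000104, edgeR), from 23.1 CPM on average to 62.9 and 54.2 CPM. Larp4, which protects poly(A) tails and was listed alongside the pathway, rose by 0.95. Eif4e, which binds the mRNA cap, rose by 1.11, and Rps6kb1, which encodes S6 kinase, by 0.58. Rises therefore included an inhibitor and an effector of the pathway. RNA levels do not show kinase activity.

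Of 10 tested importins and dedicated chaperones that carry new ribosomal proteins to the nucleus, 4 rose and 1 fell, again beside 41.8% of all genes called. The import receptors Ipo5 and Ipo7 rose by 1.21 and 0.96, and Ltv1 and Grwd1, which take part in small- and large-subunit assembly, by 1.11 and 1.07, all log2 in grafts against naive lungs. Pdcd2l fell by 0.45 and is named because it was the one that fell. Of 12 tested genes of ribosome rescue and stalling, 4 rose and 0 fell. In all this was a smaller share than that background, but for rises alone a larger one. Among those that rose were Abce1, which splits ribosomes after termination, at 0.72, and Eif2ak4, the kinase Gcn2, at 0.47. Of the 76 mitochondrial ribosomal protein genes, 2 rose and 24 fell, with a median of −0.33. In all this was also a smaller share than the 41.8%. By direction, falls took a larger share than among all genes tested (3123 of 15834) and rises a smaller one (3497 of 15834). Mrpl49 and Mrpl34 stood at −1.03 each, and Mrpl17 at 0.66 and Mrps18b at 0.91 were the 2 that rose. In shock against cold-ischemia grafts 0 genes of these 5 lists were called by edgeR's quasi-likelihood test, and 1 gene each of the rescue and the mitochondrial list had an unadjusted p under 0.05. Of all 15834 genes tested, 1152 had such an unadjusted p in that comparison.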

How the data were processed

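Whole left lung RNA of 9 mouse lungs was sequenced as paired reads after NEBNext Ultra II library preparation, per the labels' protocols, which do not state strandedness. The authors deposited 3 tables, 1 per pair of groups. Read counts per gene are unnormalized whole numbers, per the file headers. The normalized signal in the deposited tables is the count divided by 1 size factor per library. FPKM values were deposited by the authors and read here for levels. Each table also holds the authors' own log2 fold change, p-value and adjusted p-value per gene. The submitters' processing notes name STAR, HTSeq, DESeq2, edgeR, STAR-Fusion and mm10 without versions or roles.

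The 3 tables were joined by gene identifier, and counts repeated between tables agreed in every case. The members and gene lists were chosen with earlier results of these data known. Counts were tested with edgeR 4.0.16 in R 4.3.3 (filterByExpr, TMM, quasi-likelihood test, 1 mean per titled group over all 9 libraries, Benjamini-Hochberg adjustment over 15834 genes, threshold 0.05). Log2 CPM used a prior count of 2. The script was tested on simulated counts. Alternatives included DESeq2 1.42.0, other scalings, no filter, a replicate block, leaving out libraries and the grouping of the tables. Members named with values were those called, the paralogs with their main copies, the stalk genes, PCR references and members with other known roles, and up to 10 that moved most against the family median. Gene positions are those of the deposited tables, and start sequences are RefSeq's for GRCm38.p6. Some results are not reported here.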

Additional observations from a re-analysis of the deposited data

How the results depend on the processing

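Main counts of called members were 3 in grafts against naive lungs, 1 in cold-ischemia grafts, 2 in shock grafts and 0 between the graft groups. The last stayed 0 under every alternative run but 1: the grouping of the deposited tables without cold-ischemia replicate 2 and shock replicate 1, chosen after seeing the data, gave 1 call from a lone shock library. Scaling to library totals gave 11, 2 and 8 calls in the first 3 comparisons, with family medians of −0.306, −0.301 and −0.321. Upper-quartile scaling gave 2 calls for cold ischemia and 4 for shock. The DESeq2 Wald test gave 3 for cold ischemia and 4 for shock. The grouping of the deposited tables gave 5, 2 and 6 calls and a median of −0.328 between shock and cold ischemia. Fits of only the libraries compared gave 2 calls for cold ischemia. Without cold-ischemia replicate 2 and shock replicate 1, 7 members were called in grafts and 2 in cold-ischemia grafts. That alternative was chosen after seeing that the family was low in both libraries, so the added rises give no separate evidence. Leaving out 1 library at a time gave 1 to 4 calls in grafts, 0 to 2 in cold-ischemia grafts and 1 to 2 in shock grafts. The fit with the replicate number as a block gave 2, 0 and 2 calls and 0 between graft groups. Same-numbered libraries correlated between −0.394 and 0.096 in their deviations from group means. These few values show no pairing by number but cannot exclude it. The cause of these shifts was not tested. With 3 libraries a group and a median standard error of 0.18 in grafts against naive lungs, small shifts of single members were not detectable. No called value changed sign under an alternative.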
